A study of Homo sapiens with 12 samples.

Results

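A set of genes, most of them known from the liver, the intestine or the stomach, was followed through RNA sequencing libraries of 2 human lung cell lines. They are FGA, FGB, FGG, CPS1, AADAC, A1CF, ANXA13, VIL1, BCAS1 and TFF1, that is 10 of the 26485 gene symbols counted, and all 10 were among the 16373 genes that passed the filter on low counts. They were chosen by symbol as hepatic or intestinal genes, some of them because they were near absent from BEAS-2B, so the contrast between the lines took part in choosing them and is given without a test. The filter was passed through the A549 libraries, where these genes are high.

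The A549 line comes from a lung adenocarcinoma, and BEAS-2B (B2B below) from bronchial epithelium that was immortalised. The 6 groups were untreated A549 (A549_NT) and untreated B2B (B2B_NT), both lines after 72 h with 10 µM SR11302 (A549_SR11302 and B2B_SR11302), and both lines after 72 h with 50 µM SP600125 (A549_SP600125 and B2B_SP600125), with 2 libraries each. SR11302 is a retinoid-related inhibitor of AP-1, the dimeric transcription factor of Jun and Fos proteins, and SP600125 inhibits the kinase JNK, which phosphorylates Jun. Whether the control cells received the solvent DMSO is not settled in the sources used here, and neither is whether the libraries of a group came from separate cultures, so the spread between them may be technical.

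In the healthy body most of these genes are known from epithelia of the gut tube. Hepatocytes make the fibrinogen chains FGA, FGB and FGG, which are assembled into the clotting protein and induced by interleukin-6 in the acute phase response. CPS1 starts the urea cycle in liver mitochondria, AADAC is an esterase of the endoplasmic reticulum in liver and gut, and A1CF is an RNA-binding cofactor of APOB mRNA editing. VIL1 (villin) bundles actin in the microvilli of the intestinal brush border, ANXA13 is an annexin of intestinal and renal epithelium, TFF1 is a trefoil peptide secreted by gastric mucous cells, and BCAS1 is named for its amplification in breast carcinoma. The lung epithelium also arises from the foregut.

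The promoters of the fibrinogen chains are shown. That of AADAC is added because FGA, FGG and AADAC had the closest profiles among the 10 genes over the A549 libraries. The windows of CPS1 and A1CF were searched as well and are not printed. The sequences are from RefSeq (GRCh38.p14) and are written 5′ to 3′ on the strand of the gene. Windows of 6 of the 10 genes were used. The 250 bases before each start were searched on both strands for TGANTCA (AP-1), CTGGGAA (the core of the interleukin-6 response element) and TGTTTAC (FOXA), and capitals mark the matches. FGA is at chr4:154590743-154590992 (minus strand), FGB at chr4:154562730-154562979 (plus strand) and AADAC at chr3:151813866-151814072 (plus strand, up to its first annotated exon). The window of FGG lies in first exons of some annotated transcripts, so only 30 bases around its match are shown, at chr4:154612800-154612829 (minus strand).
FGA: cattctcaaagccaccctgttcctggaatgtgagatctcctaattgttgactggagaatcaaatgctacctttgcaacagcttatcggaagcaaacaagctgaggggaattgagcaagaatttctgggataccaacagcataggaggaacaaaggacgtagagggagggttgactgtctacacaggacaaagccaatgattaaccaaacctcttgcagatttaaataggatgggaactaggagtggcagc
FGB: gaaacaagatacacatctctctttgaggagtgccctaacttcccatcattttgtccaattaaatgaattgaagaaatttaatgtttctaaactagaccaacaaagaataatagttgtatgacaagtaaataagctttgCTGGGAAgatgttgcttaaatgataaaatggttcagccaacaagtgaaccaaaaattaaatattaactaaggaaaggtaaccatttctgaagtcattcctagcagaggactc
FGG: tgtgtgcaaaatCTGGGAAcctgacagtat
AADAC: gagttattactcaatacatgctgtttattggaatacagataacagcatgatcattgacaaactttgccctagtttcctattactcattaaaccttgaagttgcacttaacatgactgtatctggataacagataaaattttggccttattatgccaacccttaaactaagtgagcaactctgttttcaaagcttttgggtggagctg

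The interleukin-6 element matched in FGB (112 bases before the start used for the sequence shown) and in FGG (161 bases before the start). FGB has another window, which ends at the gene start at chr4:154563011, and there the same match lies 143 bases before the start. Of 35116 promoter windows of the same length, 9.15% hold the element. The window of FGA held none of the 3 motifs. None of the windows of FGA, FGB, FGG, AADAC, A1CF and CPS1 held the AP-1 letters, which 6.57% of all windows hold, or the FOXA letters, which 2.98% hold. In CPS1, with 3 windows, 1 held the interleukin-6 element, and the windows of A1CF and AADAC held none of them either. These are matches of letters in a short window and not measured binding sites.

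Library depth ran from 13969766 to 24917854 reads in genes, and 1 count was worth 0.0407 to 0.0745 CPM (counts scaled with TMM to library sizes of equal total). Neither line carried the full marker set of its tissue. In A549_NT, 1 of 10 alveolar type II markers (ABCA3) reached 1 CPM and SFTPA1 and SFTPA2 were at 0, and in B2B_NT, 2 of 8 bronchial markers did (EPCAM and CDH1, at 1.89 and 1.18 CPM), beside 4 of 5 fibroblast markers. Of 8 hepatocyte markers, SERPINA1 alone reached 1 CPM in A549_NT (2.53 ± 0.274 CPM, SD, n = 2), and ALB stood at 0.190 ± 0.0323 CPM. Of 8 enterocyte markers, CDH17 (33.9 ± 1.52 CPM) and LGALS4 (1.83 ± 0.405 CPM) reached 1 CPM, and CDX1, FABP1, FABP2 and SI were at 0. Some genes of the liver lists described below stood higher in A549_NT, among them GGT1 (111 ± 10.2 CPM), CP (65.2 ± 4.34 CPM) and FGL1 (43.8 ± 1.15 CPM). Others of these lists stood near or at 0, among them APOB (0.109 CPM), HP (0.0278 CPM), APOC3 and F9 (both 0 CPM). In A549, untreated or under SR11302, 15 of 32 listed liver secreted and coagulation genes reached a mean of 1 CPM. So did 10 of 25 acute phase and interleukin-6 pathway genes and 13 of 29 liver enzymes.

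CPS1 was the most abundant of the 10 in A549. Untreated A549 held 252 and 281 CPM, rank 720 of 19703 detected genes by mean CPM, and untreated B2B held 13.3 and 16.0 CPM. The ratio of A549 to B2B was 18.1 without treatment, 14.7 under SR11302 and 14.4 under SP600125, and CPS1 was the only one of the 10 to reach 1 CPM in B2B.

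VIL1 held 70.4 and 70.5 CPM in untreated A549, ANXA13 31.7 and 27.5 CPM, and BCAS1 24.1 and 21.4 CPM. AADAC held 17.1 and 17.9 CPM, A1CF 11.1 and 16.4 CPM and FGA 10.5 and 10.0 CPM. FGB stood at 7.45 and 6.85 CPM, TFF1 at 2.28 and 1.96 CPM and FGG at 1.72 and 1.43 CPM, which for FGG rests on 58 counts and for TFF1 on 78 counts in both libraries together.

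In B2B these 9 genes gave between 0 and 13 counts per library. FGB and FGG had counts in B2B_NT replicate 2 alone of the 6 B2B libraries (2 and 3 counts), and so did AADAC (4 counts). TFF1 had a single count, in a B2B_SP600125 library. VIL1 had 13 counts in B2B_NT replicate 2, 0 in replicate 1, and at most 1 in each treated B2B library. A count of 0 allows up to 0.122 to 0.183 CPM in a B2B library (3 counts, counting error only).

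B2B_NT replicate 2 stands apart here. Summed over the 9 genes, it held 0.744% of their level in A549_NT, against 0.0273% in replicate 1 and 0.0322 to 0.178% in the 4 treated B2B libraries. The 5 other genes summed for A549 (AKR1B10, AKR1C1, AKR1C2, AKR1C3 and ALDH1A1) stood at 0.567% of their A549_NT level in the same library and at 0.0174% in replicate 1. A549_NT replicate 2 held 0.292% of the B2B_NT level of 5 genes abundant in B2B, against 0.0128% in replicate 1, but the 4 treated A549 libraries held more (0.339 to 1.44%). The part of RNA or reads from A549 in those few counts was not tested.

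Ratios between the lines were therefore set both with and without that library. VIL1 was 246 times higher in A549_NT than in B2B_NT with it, and at least 491 times higher without it, against a floor of 3 counts over the group. FGA was 93.0 times higher with it and at least 71.3 times higher without it, and AADAC 199 times higher and at least 122 times higher. TFF1 was at least 32.1 times higher with all libraries and at least 14.7 times higher without that library, and CPS1 was 20.1 times higher without B2B_NT replicate 2. BCAS1, with 1 count in B2B_NT, was 1033 times higher (counting interval 185 to 40840), and 475 times higher (84.9 to 18770) without B2B_NT replicate 2. FGG was 23.9 times higher (counting interval 7.77 to 119), on 3 counts that all came from that library, and at least 10.96 times higher without it.

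**Figure D1:**
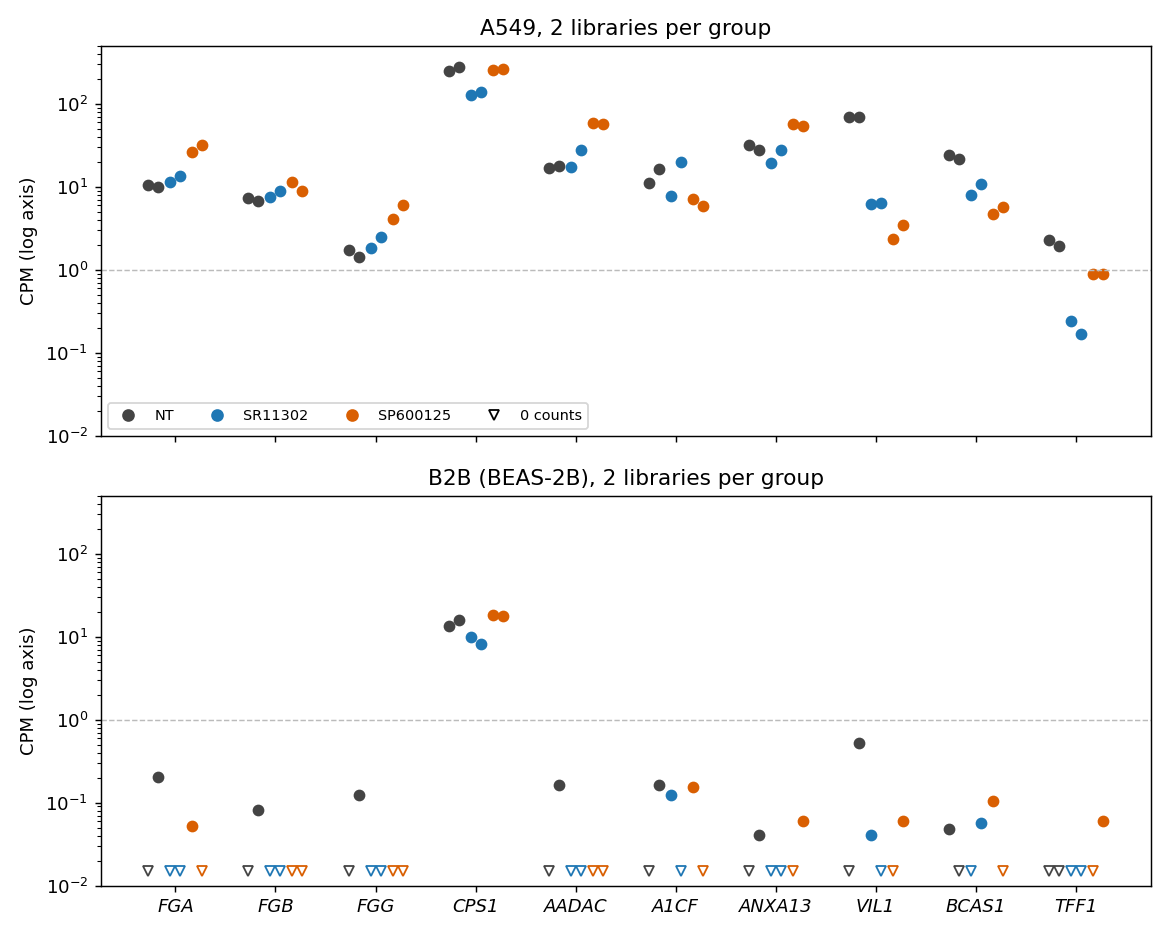
CPM of the 10 genes on a log axis in each A549 library (top) and B2B library (bottom), with untreated libraries in grey, SR11302 in blue and SP600125 in orange. Open triangles at the base are libraries with 0 counts and the dashed line is at 1 CPM. CPS1 alone lies above 1 CPM in B2B, from 8.28 to 18.3 CPM.

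To set the genes against each other, CPM was divided by the length of the merged exons. On this scale untreated A549 held CPS1 at 24.2 ± 1.82 CPM per kb (SD, n = 2), AADAC at 10.7 ± 0.336, VIL1 at 10.2 ± 0.0149 and ANXA13 at 7.78 ± 0.777. TFF1, with a short mRNA, followed at 4.31 ± 0.451 CPM per kb, then FGA at 2.61 ± 0.0747, BCAS1 at 2.16 ± 0.175, FGB at 1.63 ± 0.0967, A1CF at 1.43 ± 0.393 and FGG at 0.438 ± 0.0568. Among neighbours in this order, the libraries overlapped for FGB and A1CF only. Under SP600125 the order was led by AADAC at 35.7 ± 0.847 CPM per kb, ahead of CPS1 at 23.6 ± 0.0610, and VIL1 had moved to the last place at 0.428 ± 0.116, where its libraries overlapped those of BCAS1 at 0.498 ± 0.0735. Under SR11302, AADAC at 13.7 ± 4.44 and CPS1 at 12.3 ± 0.753 led and overlapped, A1CF at 1.45 ± 0.923 overlapped FGB, VIL1 and BCAS1, and TFF1 was last at 0.417 ± 0.108.

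This order depends on the length used. Divided by the longest transcript, CPS1 led in every A549 group, with 44.96 and 45.12 CPM per kb under SP600125 against 37.9 and 36.6 for AADAC, and with 22.4 and 24.4 under SR11302 against 11.1 and 17.6. In untreated A549, ANXA13 (16.1 and 14) then lay above AADAC (10.9 and 11.4) and VIL1 (10.8 and 10.9), and BCAS1 (3.94 and 3.51) above FGA (2.86 and 2.75). Under SP600125, VIL1 (0.367 and 0.541) was last and no longer overlapped BCAS1 (0.768 and 0.947).

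The AP-1 inhibitor SR11302 lowered 4 of the 10 genes in A549 and raised none. Over all genes tested, 13.0% were called lower and 14.8% higher in this comparison, where a call needs a Benjamini-Hochberg adjusted p under 0.05 and a log2 fold change of at least 0.5 in size. The median log2 fold change of the 10 was -0.14 and that of all genes tested 0.02. Because these are bulk samples, fewer cells with a transcript and less transcript per cell cannot be told apart. Treated libraries had fewer reads outside genes (14.6 to 20.1% of reads) than untreated ones (23.8 to 25.9%), and treatment and any difference in library handling cannot be told apart.

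VIL1 and TFF1 had the largest falls, and they differed by less than their SE. VIL1 went from 70.4 and 70.5 CPM in untreated A549 to 6.21 and 6.32 CPM under SR11302, a log2 fold change of -3.49 ± 0.27 (SE, adjusted p = 7.71e-07). The untreated and treated libraries were far apart and each pair was tight. TFF1 fell from 41 and 37 counts to 5 and 4 counts (2.28 and 1.96 CPM to 0.243 and 0.167 CPM), a log2 fold change of -3.35 ± 0.47 (adjusted p = 0.000257). The exons of VIL1 overlap those of USP37, which lies on the other strand, over 44.2% of their length. Reads of the pair may therefore be left out in counting, which would set VIL1 and its CPM per kb too low. USP37 gave 651 to 1799 counts in every library, B2B included, where VIL1 gave 0 to 13. Exons of A1CF and BCAS1 overlap other genes over 3.94% and 7.17% of their length.

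CPS1 and BCAS1 also fell under SR11302. CPS1 went from 252 and 281 CPM to 129 and 141 CPM, which is 1.97-fold lower (log2 fold change -0.98 ± 0.11, adjusted p = 2.6e-05), with no overlap between the groups. BCAS1 went from 24.1 and 21.4 CPM to 8.06 and 10.9 CPM (-1.26 ± 0.21, adjusted p = 0.000562). These 4 calls held when any 1 library of the comparison was left out.

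The fibrinogen chains did not pass the test under SR11302. FGA stood at 11.5 and 13.5 CPM (0.29 ± 0.22, adjusted p = 0.318), FGB at 7.57 and 8.99 CPM (0.22 ± 0.22) and FGG at 1.84 and 2.51 CPM (0.47 ± 0.37). In each chain both treated libraries lay above both untreated ones, by less than the test resolves. The share of all genes tested that do so is not given here, so no rise is read from it.

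AADAC, ANXA13 and A1CF did not pass either, and in all 3 the SR11302 libraries differed from each other more than the groups did. AADAC held 17.3 and 27.5 CPM (0.36 ± 0.22), and it was called higher (0.66) without A549_SR11302 replicate 1. ANXA13 held 19.6 and 28.1 CPM (-0.31 ± 0.18), and it was called lower (-0.57) without A549_SR11302 replicate 2. A1CF held 7.67 and 20.2 CPM (0.03 ± 0.37), a span that took in both untreated libraries.

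The JNK inhibitor SP600125 split the genes. It raised 4 of them in A549 (FGA, FGG, AADAC and ANXA13) and lowered 4 (VIL1, BCAS1, TFF1 and A1CF), where over all genes tested 23.9% were called higher and 25.0% lower. The median log2 fold change was 0.24 for the 10 genes and 0.02 for all genes tested. This comparison uses the same untreated libraries as that of SR11302.

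Markers of other cell types differed in the same libraries. Of 3 endothelial markers, none reached 1 CPM in A549_NT (summed 0.222 to 0.265 CPM) and all 3 did under SP600125 (13.85 to 14.97 CPM), with PECAM1 at 6.67 ± 0.57 CPM. The 4 leukocyte markers went from a sum of 44 to 48.1 CPM to one of 3.43 to 3.51 CPM, nearly all of it CD68. PTPRC and CD3E were at 0 under SP600125, but they stood at 0.0265 and 0 CPM in A549_NT already. The sum of the 8 bronchial markers went from 195 to 196 CPM to 412 to 470 CPM, through CDH1 (125 to 409 CPM). The others did not rise as a set, and 4 markers reached 1 CPM untreated against 3 under SP600125. EPCAM went from 65.6 to 27.7 CPM and KRT15 from 2.53 to 0.494 CPM, while TP63 went from 1.39 to 3.23 CPM. The sum of the 8 hepatocyte markers was 4.09 to 4.11 CPM untreated and 2.61 to 2.76 CPM under SP600125. That of the 8 enterocyte markers was 35.8 to 37.9 and 33.7 to 35.1 CPM, nearly all of it CDH17 (33.9 and 33.0 CPM). LGALS4 went from 1.83 to 0.292 CPM and KRT20 from 0.538 to 0.0345 CPM, while CDX2 went from 0.542 to 1.10 CPM. Under SR11302 the hepatocyte sum was 1.26 to 2.635 CPM and the enterocyte sum 10.7 to 23.8 CPM. The part of these differences in the results for the 10 genes was not tested.

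Of the fibrinogen chains, FGA rose from 10.5 and 10.0 CPM to 26.6 and 31.7 CPM, 2.85-fold (log2 fold change 1.51 ± 0.22, adjusted p = 6.83e-05). FGG, the chain with the fewest reads, rose from 1.72 and 1.43 CPM to 4.10 and 6.06 CPM (1.69 ± 0.36, adjusted p = 0.00169). The treated libraries of both lay above all untreated and SR11302 libraries of A549. FGB, with 11.5 and 8.82 CPM against 7.45 and 6.85 CPM, did not pass (0.51 ± 0.23, adjusted p = 0.0733). The chains are neighbours on chromosome 4 of hg38, with FGB at chr4:154563011-154572807 (plus strand), FGA at chr4:154583126-154590742 and FGG at chr4:154604134-154612967 (both minus strand).

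Per kb of exon, FGA was the most abundant chain in every A549 library. Untreated, FGA stood at 6.00 ± 0.608 times and FGB at 3.75 ± 0.265 times the level of FGG. Under SR11302 these ratios were 5.34 ± 0.555 and 3.16 ± 0.304, and under SP600125 they were 5.39 ± 0.821 and 1.76 ± 0.794. The ratio of FGA to FGG in the SP600125 libraries (5.97 and 4.80) overlapped that in untreated cells (5.57 and 6.43), while the ratio of FGB to FGG (2.32 and 1.20) lay below it (3.56 and 3.93). Divided by the longest transcript in place of all exons, the ratios of FGA to FGG were 3.70, 3.30 and 3.32, and those of FGB to FGG were 2.59, 2.19 and 1.22, with FGG (2.93 CPM per kb) above FGB (2.42) in A549_SP600125 replicate 2. The size of these ratios thus depends on the length used.

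**Figure D2:**
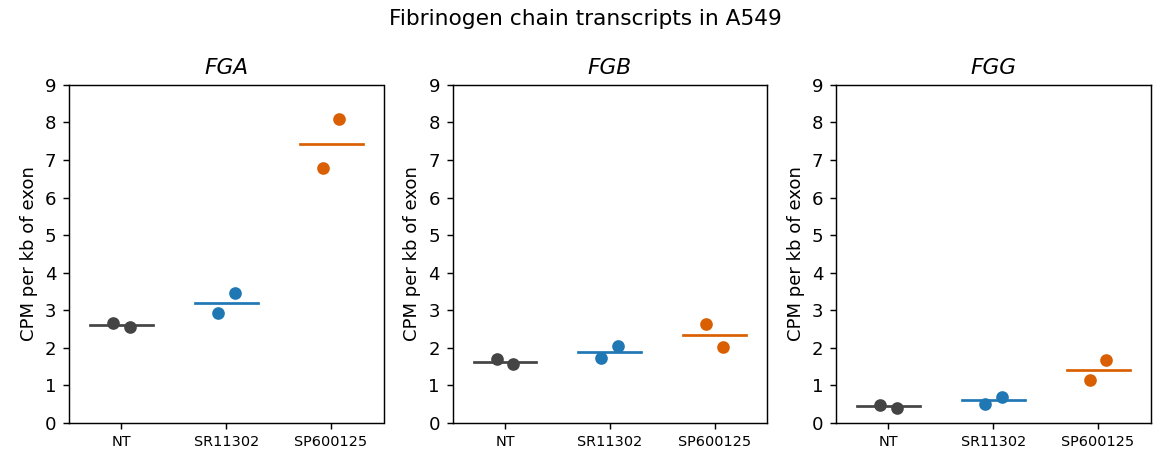
Transcript level of the 3 fibrinogen chains in A549 as CPM per kb of merged exon, with a point per library and a line at the mean of the 2 libraries of each group. FGA reaches 7.44 and FGG 1.41 CPM per kb under SP600125, while FGB goes from 1.63 to 2.33.

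AADAC rose under SP600125. It went from 17.1 and 17.9 CPM to 59.2 and 57.3 CPM, 3.33-fold (1.73 ± 0.22, adjusted p = 4.3e-05), with tight pairs. ANXA13 went from 31.7 and 27.5 CPM to 56.6 and 53.7 CPM (0.90 ± 0.18, adjusted p = 0.000905). CPS1 did not pass, with 260 and 261 CPM, between the untreated libraries at 252 and 281 CPM (-0.04 ± 0.11, adjusted p = 0.808).

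VIL1 fell under SP600125 to 2.38 and 3.51 CPM, 23.7-fold lower (-4.57 ± 0.31, adjusted p = 1.06e-07), and BCAS1 to 4.69 and 5.79 CPM (-2.11 ± 0.24, adjusted p = 6.5e-06). Both pairs lay far below the untreated libraries. TFF1 fell to 12 and 13 counts (0.894 and 0.896 CPM), a log2 fold change of -1.24 ± 0.40 (adjusted p = 0.0193). A1CF fell to 7.23 and 5.86 CPM from 11.1 and 16.4 CPM (-1.07 ± 0.40, adjusted p = 0.0343).

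The calls of TFF1 and A1CF were the least secure of the 8. That of TFF1 was lost without any 1 of the 4 libraries of this comparison, and that of A1CF without A549_NT replicate 2 (-0.76), A549_SP600125 replicate 1 (-1.22) or A549_SP600125 replicate 2 (-0.92). With DESeq2 neither passed (adjusted p = 0.125 for TFF1 and 0.227 for A1CF). Fold changes under SP600125 were related to the GC content of transcripts over 15783 genes (Spearman's rho -0.39, genes within the same libraries and not independent), and of the 10 genes TFF1 had the highest GC content (56.1%) and A1CF the lowest (36.7%). After a correction for GC content, TFF1 stood at -0.92 (adjusted p = 0.065) and A1CF at -1.50, and the other 6 calls held. The rises were then smaller, with FGA at 1.25, FGG at 1.26, AADAC at 1.35 and ANXA13 at 0.69. The falls of VIL1 (-4.80) and BCAS1 (-2.31) were larger.

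**Figure D3:**
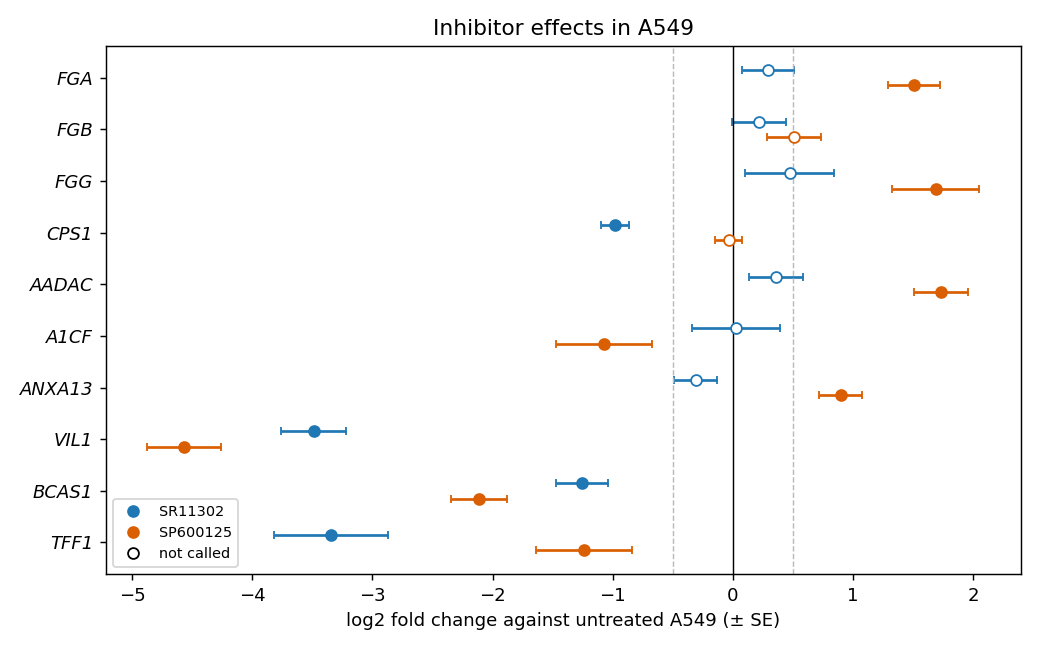
Log2 fold change (± SE) of each gene in A549 under SR11302 (blue) and SP600125 (orange) against untreated A549, 2 libraries per group. Filled points were called, and dashed lines mark 0.5 in either direction. VIL1 lies at -3.49 and -4.57, while FGA, FGG and AADAC lie at 1.51, 1.69 and 1.73 under SP600125 and between 0.29 and 0.47 under SR11302.

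Set directly against each other in A549, the inhibitors differed in 9 of the 10 genes, at doses that also differ (10 µM and 50 µM). SP600125 left 6 genes higher than SR11302 did, where 16.6% of all genes tested were called higher, and 3 lower, where 20.5% were called lower. Higher under SP600125 were AADAC (1.38 ± 0.22), FGA (1.22 ± 0.21), FGG (1.22 ± 0.34), ANXA13 (1.21 ± 0.18), CPS1 (0.95 ± 0.11, adjusted p = 2.44e-05) and TFF1 (2.11 ± 0.56, adjusted p = 0.00891). Lower were VIL1 (-1.08 ± 0.33, adjusted p = 0.0156), A1CF (-1.10 ± 0.40) and BCAS1 (-0.86 ± 0.24). FGB did not pass at 0.29 ± 0.22.

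Thus VIL1 and BCAS1 stood lowest under SP600125 and TFF1 lowest under SR11302. Of these calls, those of AADAC, FGA, ANXA13 and CPS1 held without any 1 library. VIL1 (-0.83) and BCAS1 (-0.72) were lost without A549_SP600125 replicate 1, FGG (0.90) without A549_SP600125 replicate 2 and TFF1 (1.83) without A549_SR11302 replicate 2. A1CF was lost without any of these 3 libraries, with the smallest value (-0.26) without A549_SR11302 replicate 2.

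In B2B only CPS1 was abundant enough to compare. SR11302 lowered it from 13.3 and 16.0 CPM to 9.91 and 8.28 CPM (log2 fold change -0.68 ± 0.13, adjusted p = 0.00195), in a comparison where 22.5% of all genes tested were called in either direction. Under SP600125 it held 18.3 and 17.7 CPM and did not pass (0.30 ± 0.13, adjusted p = 0.0653), where 43.8% of all genes were called. The difference between the effects (A549 less B2B) was -0.30 ± 0.17 for SR11302 (adjusted p = 0.267) and -0.33 ± 0.17 for SP600125 (adjusted p = 0.17), and neither passed, where 15.8% and 25.2% of all genes did. The fall of CPS1 under SR11302 was therefore called in both lines, with no difference between them that the test resolved.

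The profile of each gene over the 6 A549 libraries was compared with 11106 genes by the root mean square difference of centred log2 CPM, as a description. FGA and FGG were each other's closest among the 10 (0.142 log2 units), followed by FGA and AADAC (0.188), and the most distant pair was AADAC and VIL1 (2.61). FGA was second among all genes for FGG, behind LINC01504 (0.139). Nearest to FGA were SYF2, XBP1 and CLYBL (0.0770 to 0.0824), to FGB PDE7B, GTF2H3 and ZBED5-AS1, to AADAC LMBRD1, KRCC1 and ZNF302, to ANXA13 THAP10, ATP1B1 and C7orf73, and to CPS1 MYLIP, BRD7 and DNAJB6. Nearest to VIL1 were GCSH (0.432), MUC5AC (0.491) and MUC5B (0.532), the latter pair gel-forming mucins. TFF1 was nearest to KLF2 (0.172), NTRK3 and SPDEF, BCAS1 to AGAP9, APC2 and ARHGAP11B, and A1CF to LINC00312, ZBTB20 and PLCXD3.

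The other genes of the same pathways were read from lists that hold none of the 10. For all lists below, the shares over all genes tested were 14.8% higher and 13.0% lower under SR11302. Under SP600125 they were 23.9% higher and 25.0% lower. No list was tested as a set, so a count near these shares is not a result about its list. A gene given with 2 values was called under both inhibitors (SR11302 first) and 1 given with a single value under that inhibitor alone, which does not show that the inhibitors differ. Of 21 tested brush border and enterocyte genes, 9 fell and 3 rose in A549 under SR11302, and 9 fell and 1 rose under SP600125 (median log2 fold change -0.67 and -0.56). CDHR5, a protocadherin that links microvilli, stood at -3.03 ± 0.28 and -5.16 ± 0.39 under the 2 inhibitors. MYO1A, the brush border myosin, stood at -3.07 ± 0.34 and -2.47 ± 0.35, and EPS8L3 at -2.13 ± 0.20 and -2.54 ± 0.22. MYO1D, another class I myosin, rose under SR11302 (0.70 ± 0.17). Among 7 tested relatives of villin and gelsolin, none passed under SR11302, and under SP600125 1 rose and 1 fell (CAPG, -0.67 ± 0.14). Named after their values were seen, the gene that rose was SCIN (2.33 ± 0.47, from 0.245 to 1.26 CPM), and the 1 brush border gene that rose under SP600125 was the peptidase ANPEP (2.13 ± 0.29).

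Of 11 tested gastric mucous and trefoil genes, 7 fell and 1 rose under SR11302 and 5 fell and none rose under SP600125 (medians -1.94 and -1.28). The mucin MUC5B went from 772 CPM to 38.2 and 28.3 CPM (-4.33 ± 0.42 and -4.77 ± 0.44). MUC6 fell under both (-2.25 ± 0.24 and -4.60 ± 0.33), as did the calpain CAPN8 (-4.13 ± 0.35 and -1.30 ± 0.29). Of 11 other annexins, 1 rose (ANXA10, which is also the gastric gene that rose, from 0.107 to 1.29 CPM, named after its values were seen) and 1 fell (ANXA2, -0.59 ± 0.14) under SR11302, and none rose and 2 fell under SP600125 (ANXA8, -0.76 ± 0.27, and ANXA6, -0.58 ± 0.12).

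Of 21 tested liver secreted and coagulation proteins, 11 fell and none rose under SR11302, and 10 fell and 5 rose under SP600125. RBP4, which carries retinol in plasma, fell under both (-2.37 ± 0.26 and -1.13 ± 0.24), as did VTN (vitronectin, -1.08 ± 0.19 and -0.97 ± 0.19) and coagulation factor F12 (-0.76 ± 0.22 and -2.75 ± 0.26), and F7 rose under SP600125 (0.84 ± 0.30). Of 15 tested acute phase and interleukin-6 pathway genes, 4 rose and 3 fell under SR11302, and 8 rose and 1 fell under SP600125. The kinase JAK1 rose under both (0.67 ± 0.10 and 1.19 ± 0.10), as did STAT3 (0.71 ± 0.10 and 0.73 ± 0.10). CP (ceruloplasmin) fell under SR11302 (-1.58 ± 0.35) and rose under SP600125 (0.87 ± 0.33), FGL1, a fibrinogen-like protein of liver, fell under SR11302 (-0.84 ± 0.27), and CEBPD fell under SP600125 (-0.80 ± 0.16).

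Around the fibrinogen genes on chromosome 4, 4 of 7 listed neighbours were tested. None passed under SR11302, and under SP600125 PLRG1 (1.07 ± 0.09) and MAP9 (1.14 ± 0.19) rose. Of 8 tested genes with a fibrinogen-like domain, 1 rose and 3 fell under SR11302 and 1 rose and 5 fell under SP600125, with ANGPTL4 at 0.98 ± 0.15 and -0.71 ± 0.16.

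Of 11 tested genes of the urea cycle and nitrogen disposal, 3 rose and 3 fell under each inhibitor. Under SP600125 these counts are near the shares over all genes tested (23.9% higher and 25.0% lower). Under SR11302 the shares were 14.8% and 13.0%, and the list was not tested as a set. Beside CPS1, ASS1, which makes argininosuccinate, rose (0.97 ± 0.22 and 1.97 ± 0.22) and ASL, which cleaves it, fell (-0.58 ± 0.14 and -1.58 ± 0.16). Glutamine synthetase, GLUL, rose (2.0 ± 0.25 and 2.35 ± 0.25), the glutaminase GLS2 fell (-1.0 ± 0.20 and -0.92 ± 0.21), and so did CAD, whose carbamoyl phosphate goes to pyrimidines (-0.57 ± 0.12 and -1.46 ± 0.12). Of 16 tested liver enzymes, 6 rose and 2 fell under SR11302 and 5 rose and 4 fell under SP600125. The counts that fell are near the shares over all genes tested (13.0% and 25.0%). BAAT, which conjugates bile acids, rose under SR11302 and fell under SP600125 (1.94 ± 0.18 and -0.51 ± 0.20), and PCK2 rose under SP600125 (1.90 ± 0.17). HPD, of tyrosine breakdown, fell under SR11302 (-1.01 ± 0.17) and rose under SP600125 (1.60 ± 0.16), and CYP3A5 went the other way (1.04 ± 0.32 and -1.66 ± 0.41), while GGT1 fell under both (-1.61 ± 0.15 and -1.89 ± 0.15).

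Of 6 tested genes of APOB mRNA editing beside A1CF, 1 rose and 3 fell under each inhibitor, among them the RNA-binding proteins KHSRP (-0.78 ± 0.11 and -0.96 ± 0.11) and SYNCRIP (-0.74 ± 0.12 and -0.80 ± 0.12). Of 23 tested transcription factors of endoderm, 1 rose and 5 fell under SR11302 and 8 rose and 4 fell under SP600125. Over all genes tested, 14.8% were called higher and 13.0% lower under SR11302, and 23.9% and 25.0% under SP600125. HNF4A fell under SR11302 (-1.18 ± 0.24), and under SP600125 the nuclear receptors NR5A2 (1.33 ± 0.20) and PPARA (1.06 ± 0.17) rose. MLXIPL fell under both (-0.72 ± 0.17 and -1.09 ± 0.18).

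**Figure D4:**
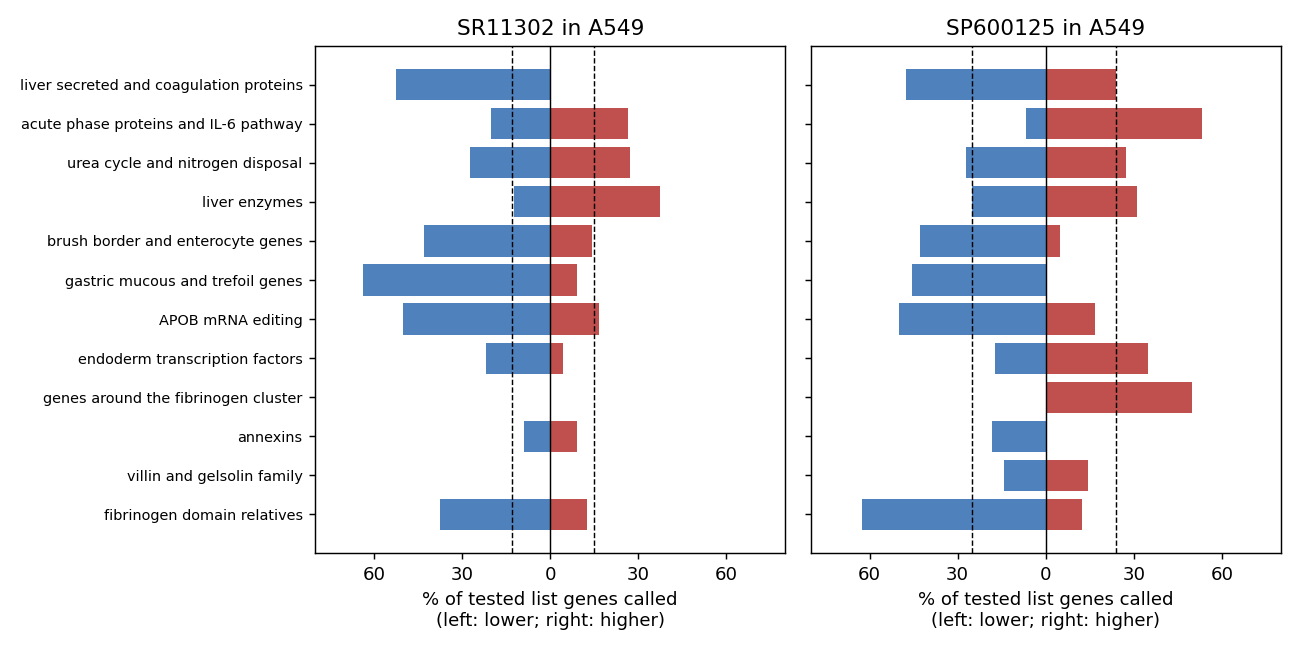
Share of the tested genes of each list called lower (blue, to the left) and higher (red, to the right) in A549 under SR11302 and SP600125. Dashed lines mark the shares over all genes tested, 13.0% and 14.8% under SR11302 and 25.0% and 23.9% under SP600125. The bars rest on 4 to 23 genes each.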

How the data were processed

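The authors extracted total RNA with TRIzol, treated it with DNase, built polyadenylated RNA libraries and sequenced them on Illumina instruments. Per the labels and the submitters' processing notes, reads were aligned to hg38 with STAR 2.7.10a and counted with HTSeq 1.99.2. The deposited values are whole-number counts per gene symbol without normalization. For the annotation, the strand setting and the instrument of each library, nothing is given in the sources used here. HTSeq leaves out reads that overlap several genes, so overlapping genes may lose reads. The HTSeq tallies of reads in no gene (14.6 to 25.9% of reads) stayed out of library sizes and tests.

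From these counts, all 12 libraries were fitted in 1 model of 6 groups with edgeR 4.0.16 (R 4.3.3), filterByExpr, TMM and the quasi-likelihood test, with Benjamini-Hochberg adjustment over 16373 genes and 6 residual degrees of freedom. SE were computed as the fold change over the root of F. The study's tool, DESeq2 (1.42.0), was an alternative, beside other scalings, no filter, subsets of libraries, a replicate block and leaving out each library. The fit was tested on simulated data. Lengths and positions come from GENCODE annotation of hg38, in which 24545 of 26485 symbols were matched. The members and lists were chosen with earlier results of these data known. Genes named beside the members are, per list and contrast, up to 2 called genes per direction with the largest change among those at 5 CPM or more, and the 3 genes nearest in profile to each member. A gene that this rule would name is not reported here.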

Additional observations from a re-analysis of the deposited data

How the results depend on the processing

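Under SP600125 in A549, the 4 genes called lower became 2 with DESeq2 and 2 to 3 when a library was left out, with TFF1 and A1CF the calls lost. Under SR11302 in A549, the genes called higher numbered 0 to 1 when a library was left out, and for SP600125 against SR11302 those called lower numbered 0 to 3. Signs that changed were all of values that had not passed. CPS1 under SP600125 went from -0.04 to 0.042 with library size scaling alone, and from -0.11 to 0.044 when a library was left out. A1CF under SR11302 went from 0.03 to -0.038 with a replicate block, to -0.12 with the GC correction, and from -0.82 to 0.56 when a library was left out. FGB under SP600125 was called with library size scaling alone (0.59, adjusted p = 0.0477) and without the filter on low counts (0.51, adjusted p = 0.0454). A1CF lost its call under SP600125 with library size scaling alone (adjusted p = 0.0577), and for SP600125 against SR11302 with DESeq2 (adjusted p = 0.243) and with the A549 libraries alone (adjusted p = 0.052). The GC correction was chosen after seeing the data.

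Without B2B_NT replicate 2, 9 genes had at most 3 counts in B2B_NT, against 5 with it. The ratio of CPS1 between the lines under SP600125 was 12.7 with library size scaling alone. With the longest transcript as the length, FGA to FGG was 3.70 untreated, 3.30 under SR11302 and 3.32 under SP600125, and FGB to FGG was 2.59, 2.19 and 1.22.

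The deviations of libraries with the same replicate number had correlations from -0.15 to 0.17 between groups. With 2 libraries per group, these values cannot decide whether the numbers pair the libraries. The replicate block changed no call among the 10 genes, and over all genes it gave 4418 calls against 4557 under SR11302 and 7888 against 7997 under SP600125 in A549. Depth limits TFF1 and FGG most, with 4 to 41 counts of TFF1 in an A549 library, and in B2B it leaves CPS1 as the only comparison. The fits left 6 residual degrees of freedom for all groups, so a lone library was taken to vary like the other groups. The pairs were not equally alike. Chi-square per degree of freedom between the libraries of a group was 40.8 in A549_SR11302, 12.7 in B2B_SR11302 and 9.76 in A549_NT. It was 8.34 in B2B_SP600125, 2.68 in B2B_NT and 2.49 in A549_SP600125, and it also grows with depth. The shared spread may thus set SE too low for A549_SR11302.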
